A study of Caenorhabditis elegans with 9 samples.

Results

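Libraries labelled UNC5 were compared with libraries labelled WT in whole-body messenger RNA from the nematode Caenorhabditis elegans, and the genes described here are those of the germline, the sperm, the epidermis, the intestine and the gene families. The comparison takes 6 of the 9 libraries of the series, chosen by their labels: 3 UNC5 libraries and 3 WT libraries. The other 3 libraries, labelled PATR1, entered the same statistical fit, and their values are given where they stand beside a UNC5 result. Both PATR1 and UNC5 were set against the same WT libraries. The UNC5 group carries that genotype label, and the design text describes a strain with the stop-codon allele unc-5(Cys348*). The labels do not tie this allele to either mutant label, nor say what PATR1 stands for. The WT group is the wild type, and all groups were age-synchronized populations taken as young adults, from which poly(A) RNA was sequenced. No transgene, drug or Cre driver is named for any group, the number of worms per library is not given, and whether replicates were grown separately is not given either. For that reason the p-values speak of the variation among the libraries at hand, and it may be technical.

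The young adult hermaphrodite is mostly germline, intestine, epidermis, muscle and nervous system. Its germline first makes a limited store of sperm late in larval life and then switches for good to oocytes, so sperm messages are made in an early period and oocyte messages in a later one. The epidermis secretes the cuticle, a layered matrix of collagens, cuticlins and zona pellucida domain proteins that is rebuilt at each moult with a different set of collagen genes at each stage. The intestine digests food, stores fat, makes yolk and responds to metals and microbes. The gene unc-5 encodes a receptor for netrin, a secreted cue that steers axons and migrating cells away from its source. Many nematode genes have no symbol of their own and are known by the name of the genomic clone they were found on, such as C13A2.12, and these clone-named genes are counted here as a class.

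The UNC5 libraries held 38673206 to 45911861 counts on genes and the WT libraries 56713370 to 60642199. Reads in no annotated gene made up 1.11% to 1.32% of reads in UNC5 and 0.582% to 0.647% in WT, and reads with several places in the genome made up 3.57% to 3.63% in UNC5 and 4.69% to 4.96% in WT. A level in CPM is the count of a gene divided by the scaled size of its library. Means are given ± SD with n = 3 libraries per group, and log2 fold changes are UNC5 over WT, ± SE of the fit. All adjusted p-values come from the edgeR quasi-likelihood test with Benjamini-Hochberg adjustment over the 17512 genes with enough counts. A gene is called when its adjusted p is below 0.05 and its log2 fold change exceeds 1 in size, and "rose" or "fell" refer to the adjusted p alone. At this depth and spread 76.8% of all genes tested passed the adjusted p alone, 49.8% higher and 27.0% lower, and 77.9% had no overlap between UNC5 and WT libraries. With 20.8% of genes called, 7.09% higher and 13.7% lower, each count below is to be read against these shares, and each median against 0.16, the median log2 fold change of all genes tested.

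The gene unc-5 (WBGene00006745, chromosome IV, 5495664 to 5528338, minus strand, in WBcel235) stood at 10.1, 9.88 and 10.3 CPM in the UNC5 libraries, against 16.7, 18.4 and 18.3 CPM in the WT libraries. All UNC5 libraries were below all WT libraries (log2 fold change -0.82 ± 0.0576, adjusted p = 2.9e-14), and the exact two-sided permutation test gave p = 0.1, the smallest value that 3 against 3 libraries allow. The fall was too small for a call. Of the 20 tested genes of the netrin pathway, 13 rose, 4 fell, 3 did not pass and 0 were called in either direction, by edgeR or by DESeq2, with 17 at an unadjusted p below 0.05 (median 0.28). The largest rise of the list was in unc-129, which encodes a TGF-beta family ligand that acts with netrin in dorsal guidance, with 19.2, 18.0 and 19.3 CPM in the UNC5 libraries, against 10.5, 9.30 and 9.61 CPM in the WT libraries (log2 fold change 0.94 ± 0.0575, adjusted p = 6.9e-16). The netrin gene unc-6 averaged 21.6 ± 0.418 CPM in UNC5 and 16.97 ± 0.705 CPM in WT, and unc-40, which encodes the other netrin receptor, 141 ± 3.03 CPM in UNC5 and 112 ± 2.92 CPM in WT. The receptor phosphatase gene clr-1 averaged 148 ± 3.82 CPM in UNC5 and 105 ± 0.295 CPM in WT. None of these libraries overlapped between the groups, and the log2 fold changes were 0.34 for unc-6, 0.33 for unc-40 and 0.49 for clr-1.

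**Figure D1:**
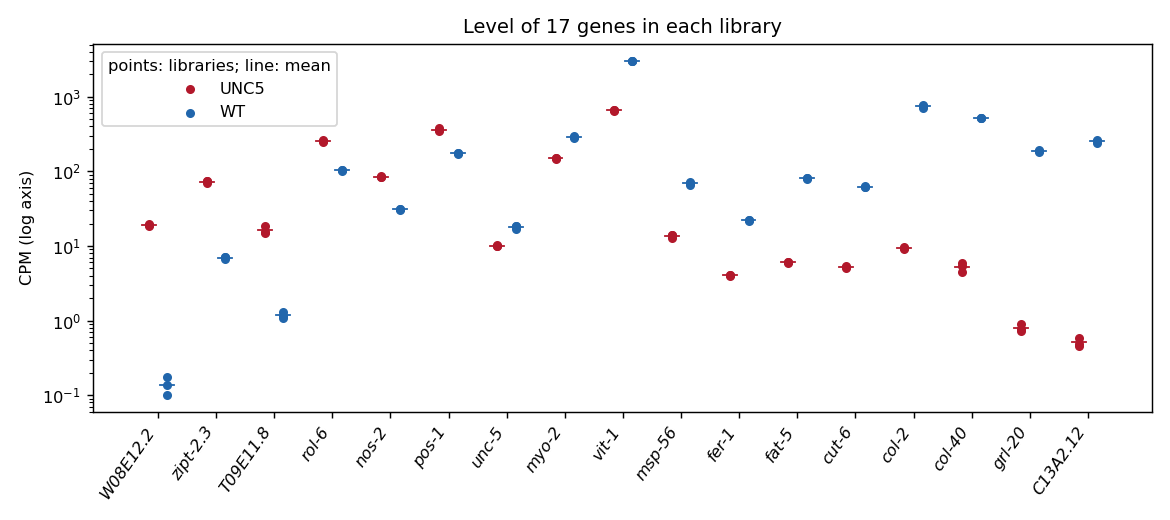
Level of 17 genes described in the text, in CPM on a log axis, with UNC5 libraries on the left and WT libraries on the right of each pair. Points are libraries and short lines group means. The spread within a group is small beside the distance between groups, and C13A2.12 stands near 0.514 CPM in UNC5 and 252 CPM in WT.

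Nearly all sperm genes tested fell, by sizes that differed within each list. Log2 fold changes ran from -2.65 to -0.95 in the major sperm proteins and from -2.60 to 0.64 in the small sperm families. In the genes with a known role in sperm they ran from -3.04 to -0.44. Of 29 tested major sperm protein genes, which encode the filament protein of the crawling sperm, 26 were called lower (median -1.68), and all 29 had every UNC5 library below every WT library. Of 30 genes of small sperm protein families, 29 were called lower (median -1.90), and the other, ssp-37, rose with a log2 fold change of 0.64. Of 30 genes with a known role in sperm, 29 were called lower (median -2.11), and the other, spe-5, which encodes a proton pump subunit used beyond the sperm, fell by 0.44 on the log2 scale. In bulk RNA fewer cells of a type and less RNA per cell cannot be told apart. The 3 lists together held 0.0733, 0.0712 and 0.0705% of counts in the UNC5 libraries, against 0.276, 0.261 and 0.259% in the WT libraries. The exact permutation p was 0.1, the smallest possible.

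The falls reached genes used at several steps of sperm life. The major sperm protein gene msp-56 (WBGene00003449, chromosome IV, 9841540 to 9841923, plus strand) had 13.9, 13.9 and 12.9 CPM in the UNC5 libraries, against 72.7, 69.3 and 65.4 CPM in the WT libraries (log2 fold change -2.35 ± 0.0504, adjusted p = 5.2e-28). The highest UNC5 library was thus far below the lowest WT library. smz-1, which encodes a PDZ domain protein of sperm meiosis, had 9.93, 10.8 and 10.7 CPM in the UNC5 libraries, against 64.8, 63.1 and 62.5 CPM in the WT libraries (log2 fold change -2.60 ± 0.0475, adjusted p = 3.9e-30). The tyrosine kinase gene spe-8, needed for sperm activation, averaged 2.05 ± 0.122 CPM in UNC5 and 11.7 ± 0.458 CPM in WT, and fer-1, whose ferlin product acts in membrane fusion of the maturing sperm, averaged 4.04 ± 0.0828 CPM in UNC5 and 22.1 ± 0.203 CPM in WT. Their libraries did not overlap between the groups, and the folds were 5.69 for spe-8 and 5.47 for fer-1. The genes of sperm surface proteins needed to fertilize the oocyte fell as well: spe-9 averaged 1.19 CPM in UNC5 and 6.12 CPM in WT, spe-42 0.988 CPM in UNC5 and 5.09 CPM in WT and spe-49 1.12 CPM in UNC5 and 9.15 CPM in WT. spe-11, whose product the sperm carries into the egg, averaged 5.16 ± 0.502 CPM in UNC5 and 25.6 ± 1.004 CPM in WT.

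The regulators of sperm formation, chosen after their values were seen, moved less and not all one way. spe-44, which encodes a transcription regulator of sperm genes, fell with 12.27 ± 0.199 CPM in UNC5 and 31.2 ± 0.667 CPM in WT (log2 fold change -1.34 ± 0.0504, adjusted p = 1.4e-21). fog-1, an RNA-binding protein gene that sets sperm fate, rose with 19.5, 20.5 and 19.3 CPM in the UNC5 libraries, against 12.5, 13.2 and 11.8 CPM in the WT libraries (log2 fold change 0.66 ± 0.0533, adjusted p = 7.0e-13). fog-3, which acts with it, stood at 4.66, 4.35 and 4.18 CPM in the UNC5 libraries, against 5.40, 5.02 and 5.28 CPM in the WT libraries (log2 fold change -0.25 ± 0.0829, adjusted p = 0.0064). Its libraries lay close together and did not overlap, with a fold of 1.19 lower. The summed level of 12 male neuron and tail genes was 8.75 to 9.65 CPM in UNC5 and 8.25 to 8.61 CPM in WT. Of the 8 with enough counts to test, 2 rose and 6 did not pass (median 0.09, and -0.01 with relative log expression factors). The polycystin gene pkd-2, a marker of male sensory neurons, had 0.204, 0.197 and 0.219 CPM in the UNC5 libraries, against 0.152, 0.217 and 0.127 CPM in the WT libraries, and the groups overlapped. dmd-3, a regulator of male tail tip shape, was the 1 called gene of the list, at 0.538 CPM in UNC5 and 0.266 CPM in WT. In PATR1, set against the same WT libraries, the median log2 fold change of the sperm lists was -0.13 for major sperm proteins, -0.37 for the small families and -0.63 for sperm function genes. Multimapping reads, which are counted for no gene and which near-identical copies such as the major sperm protein genes produce, were fewer in UNC5, as given above, and their part in these falls was not tested. Single members of that family are uncertain for the same reason.

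Oocyte messages moved the other way. All 34 tested oocyte and maternal genes rose, 2 of them past the call, with a median of 0.62 against 0.16 for all genes. Together they held 1.47, 1.45 and 1.44% of counts in the UNC5 libraries, against 0.971, 0.991 and 1.001% in the WT libraries. nos-2, a Nanos homolog of the germline founder cells, had 84.0, 83.7 and 85.6 CPM in the UNC5 libraries, against 31.1, 29.9 and 31.6 CPM in the WT libraries (log2 fold change 1.45 ± 0.0403, adjusted p = 3.6e-25). pos-1, which encodes a maternal zinc finger RNA-binding protein, had 353, 349 and 379 CPM in the UNC5 libraries, against 172, 176 and 176 CPM in the WT libraries (log2 fold change 1.04 ± 0.0339, adjusted p = 2.7e-23). For both genes every UNC5 library was above every WT library. The yolk receptor gene rme-2 averaged 509 ± 9.99 CPM in UNC5 and 312 ± 10.01 CPM in WT, and the maternal RNA-binding protein genes mex-3 and oma-1 averaged 299 CPM in UNC5 and 195 CPM in WT for mex-3, and 177 CPM in UNC5 and 125 CPM in WT for oma-1, none of them called. In PATR1 the median of this list against WT was 1.009.

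Genes of the mitotic and meiotic germline changed little. Of 36 tested, 21 rose, 8 fell, 7 did not pass and 0 were called, by edgeR or by DESeq2, with 29 at an unadjusted p below 0.05 (median 0.21). The stem cell genes sygl-1 and lst-1, targets of Notch signalling at the distal end of the gonad, rose: sygl-1 averaged 70.6 ± 0.726 CPM in UNC5 and 38.7 ± 1.25 CPM in WT, and lst-1 78.2 ± 1.58 CPM in UNC5 and 51.6 ± 0.243 CPM in WT. The germ granule helicase gene glh-1 fell, at 278, 294 and 288 CPM in the UNC5 libraries, against 454, 449 and 432 CPM in the WT libraries (log2 fold change -0.63 ± 0.0330, adjusted p = 9.9e-18). The summed level of the list was 2678 to 2706 CPM in UNC5 and 2618 to 2689 CPM in WT, ranges that overlap. In the same libraries the vitellogenin genes, whose yolk the oocytes take up, fell in 6 of 6 cases with 2 called (median -0.83), and their share was 3.57% ± 0.0466 of counts in UNC5 and 6.27% ± 0.0398 in WT.

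The lower genes were unevenly placed in the genome. On the X chromosome 100 of 2458 tested genes were called lower (4.07%), while on the autosomes 2302 of 15033 were (15.3%), with chromosome IV highest at 18.7%. Among higher genes the X chromosome stood at 6.27%, chromosome V at 9.55% and chromosome III lowest of the chromosomes in the nucleus at 3.94%. The place changed with the size of the fall. Of the 1091 genes with a log2 fold change between -3 and -2, 1.37% lay on X and 63.1% were clone-named, where X holds 2458 of all 17512 tested genes and 42.8% of them are clone-named. Of the 241 called genes below -3, 121 lay on chromosome V (50.2%), which holds 21.5% of all tested genes, and 117 were clone-named (48.5%). These are counts over genes, which are not independent, and no test was made of them. The sperm lists lie mostly inside the band between -3 and -1, which holds 2163 genes.

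**Figure D2:**
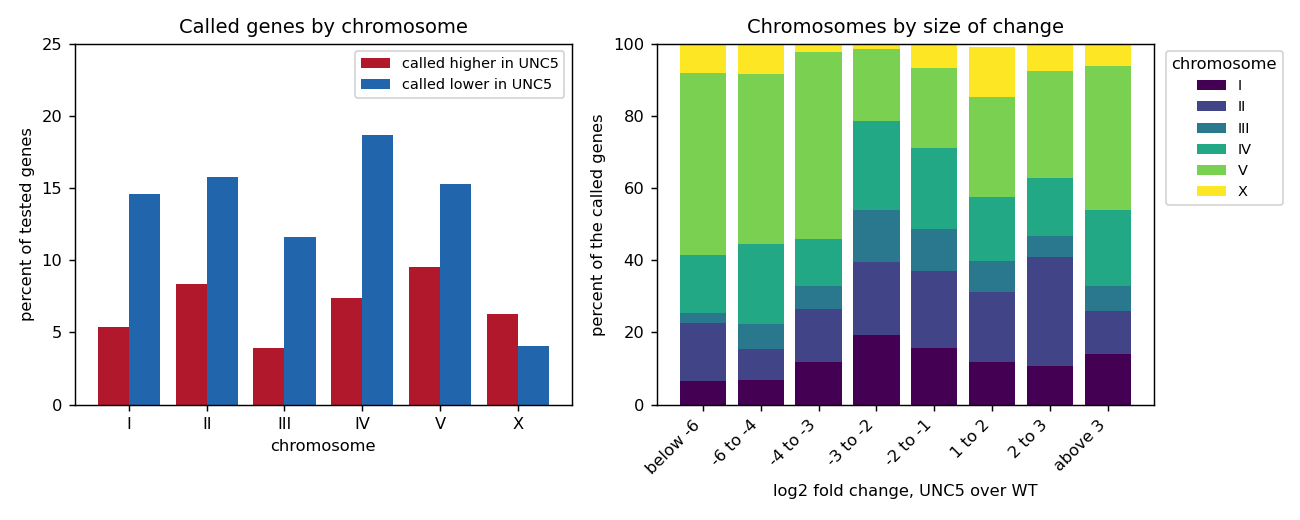
Left, percent of the tested genes of each chromosome called higher (red) and lower (blue) in UNC5; right, the chromosomes of the called genes by size of log2 fold change, where bars short of 100 leave out mitochondrial or unplaced genes. The X chromosome has the lowest share of lower genes, 4.07%, and chromosome V holds 50.2% of the genes below -3.

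Clone-named genes made up a large part of the change. Of 7498 tested, 1428 were called lower and 631 higher (8.42%), and of 10014 genes with another symbol or only an identifier 976 were called lower (9.75%) and 610 higher (6.09%). Pseudogenes went down often, with 204 of 733 called lower (27.8%) and 53 higher. Noncoding RNA genes were called higher in 31 of 141 cases and lower in 14, and long intergenic RNA genes higher in 11 of 73 (15.1%) and lower in 6. As a share of all counts the clone-named genes differed less, with 16.7% ± 0.1096 of counts in UNC5 and 15.9% ± 0.0519 in WT. With a filter at 5 CPM in at least 3 libraries, 219 clone-named genes were called higher and 677 lower.

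The largest rise among clone-named genes of at least 5 CPM was in W08E12.2 (WBGene00021083, chromosome IV, 3305875 to 3306639, plus strand), with 19.3, 19.7 and 18.6 CPM in the UNC5 libraries, against 0.135, 0.1004 and 0.175 CPM in the WT libraries, a ratio of 139.8 (log2 fold change 7.10 ± 0.132, adjusted p = 6.0e-30). M199.9 followed with 8.43, 6.86 and 8.45 CPM in the UNC5 libraries, against 0.101, 0.167 and 0.111 CPM in the WT libraries (log2 fold change 5.94 ± 0.167, adjusted p = 5.3e-25). Both genes lie on chromosome IV and were below 0.2 CPM in every WT library. Y39B6A.69 averaged 6.52 CPM in UNC5 and 0.136 CPM in WT, and R08F11.4 38.8 CPM in UNC5 and 1.91 CPM in WT, both on chromosome V. D1086.9, F25A2.1 and F57F4.2, also on V, rose 23.8-fold, 16.2-fold and 14.1-fold. Y39G8B.7 averaged 51.7 CPM in UNC5 and 3.27 CPM in WT, and F56C3.9, on X, 64.3 CPM in UNC5 and 4.30 CPM in WT. Y105C5B.3 and K04A8.20 complete the list with log2 fold changes of 4.27 and 4.11. In amount the largest gain of a clone-named gene was in F40F8.5 (WBGene00009578, chromosome II, 11132852 to 11134928, minus strand), with 824, 895 and 941 CPM in the UNC5 libraries, against 189, 193 and 196 CPM in the WT libraries (log2 fold change 2.204 ± 0.0398, adjusted p = 4.6e-30). The same gene averaged 880.5 CPM in PATR1.

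The largest falls of clone-named genes lay mostly on chromosome V, with F17B5.4 on chromosome I as the 1 exception among 12. All 12 were near 0 in PATR1 as well, with K08D9.6 the highest at 0.176 CPM on average and C13A2.12 at 0.125 CPM. Among the 3 groups these genes thus stood high in WT only. C13A2.12 (WBGene00044547, chromosome V, 7259265 to 7260041, plus strand) had 0.458, 0.492 and 0.591 CPM in the UNC5 libraries, against 258, 259.9 and 239 CPM in the WT libraries (log2 fold change -8.92 ± 0.0698, adjusted p = 2.7e-40). K08D9.6 had 0.127, 0.197 and 0.175 CPM in the UNC5 libraries, against 30.9, 31.7 and 31.7 CPM in the WT libraries, and C33G8.13 0.102, 0.147 and 0.0656 CPM in the UNC5 libraries, against 23.2, 22.7 and 22.3 CPM in the WT libraries. In all 3 genes every UNC5 library was below 1 CPM. K01D12.10 and ZK285.2 averaged 0.0807 CPM in UNC5 and 14.7 CPM in WT for K01D12.10, and 0.0716 CPM in UNC5 and 12.1 CPM in WT for ZK285.2. C13A2.5 and F07G11.3 had 0 counts in all UNC5 libraries. Against a floor of 3 counts over the group, C13A2.5 was at least 307-fold lower and F07G11.3 at least 239-fold lower. C13A2.6 had 1 count over the UNC5 libraries (1354-fold, 95% counting interval 243 to 53495), and F17B5.4 had 3 (321-fold, 95% counting interval 109.8 to 1555). No gene had at most 3 counts over the WT libraries and 5 CPM or more in UNC5, while 4 were so in the other direction, all of them clone-named.

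Many of these genes are neighbours. Runs were sought among tested protein-coding genes and pseudogenes, passing over other tested genes between them. Runs of at least 5 such neighbours called in the same direction numbered 33, of which 5 were higher and 28 lower, with 242 genes in all. Over all tested genes 3645 were called, 1241 higher and 2404 lower, so most called genes lay outside such runs. Of these runs, 8 held a gene of the sperm lists. This count was added after the values were seen. The longest run of lower genes was on chromosome V from 7252244 to 7321009, where 18 of 18 tested genes were called lower with a median log2 fold change of -6.17. It holds the C13A2 and F07G11 genes named above, with C13A2.9 at 0.113 CPM in UNC5 and 28.3 CPM in WT, F07G11.1 at 0.0473 CPM in UNC5 and 26.7 CPM in WT and C13A2.4 at 0.0301 CPM in UNC5 and 15.2 CPM in WT. In windows of the same length, 1 of 20 tested genes was called lower before it and 5 of 20 after it. A run ends at the first gene without the same call, so this contrast follows in part from how the run was found. In PATR1, 17 of the 18 were called lower against the same WT libraries, with a median of -8.32, where all tested genes had 10.5% called lower and 6.02% higher. Single libraries weigh on some of these folds: without UNC5 replicate 1 C13A2.6 went to -12.09 (all libraries -10.01), without UNC5 replicate 3 C13A2.4 to -9.98 (all libraries -8.79) and srj-32 to -5.48 (all libraries -4.84), and without UNC5 replicate 2 WBGene00017232 to -7.92 (all libraries -5.03).

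A stretch of chromosome I from 12292202 to 12426850 went the opposite way in UNC5. Of its 34 tested genes 32 were called higher (median 2.06), while in windows of the same length before and after it 6 of 25 and 1 of 27 were. The stretch spans runs of higher genes and the genes between them. Its bounds were thus set by the calls, and the contrast follows in part from how it was found. In PATR1, 29 of the same 34 genes were called lower against WT, with a median of -3.36. The stretch holds glycosyltransferase homologs, among them bgnt-1.7, glct-3, gly-16 and gly-17, and the acyltransferase homologs oac-43, oac-44 and oac-45. T09E11.8 had 18.3, 15.6 and 14.8 CPM in the UNC5 libraries, against 1.15, 1.09 and 1.32 CPM in the WT libraries (log2 fold change 3.77 ± 0.0969, adjusted p = 4.5e-26), and 0.0973 CPM on average in PATR1. oac-45 had 15.97, 14.6 and 14.4 CPM in the UNC5 libraries, against 5.40, 5.74 and 6.06 CPM in the WT libraries (log2 fold change 1.38 ± 0.0709, adjusted p = 6.4e-18). The UNC5 libraries of both genes were all above those of WT. bgnt-1.7 averaged 2.34 CPM in UNC5 and 0.336 CPM in WT, and glct-3 1.69 CPM in UNC5 and 0.165 CPM in WT. At the far edge E03H4.3 had 43 counts over the UNC5 libraries and 2 over the WT libraries (31.1-fold, 95% counting interval 8.62 to 257), and E03H4.2 averaged 0.855 CPM in UNC5 and 0.0446 CPM in WT, with a log2 fold change of 4.20, and of 5.50 without WT replicate 1. Copy number and sequence differences between the strains in these stretches were not analysed here.

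**Figure D3:**
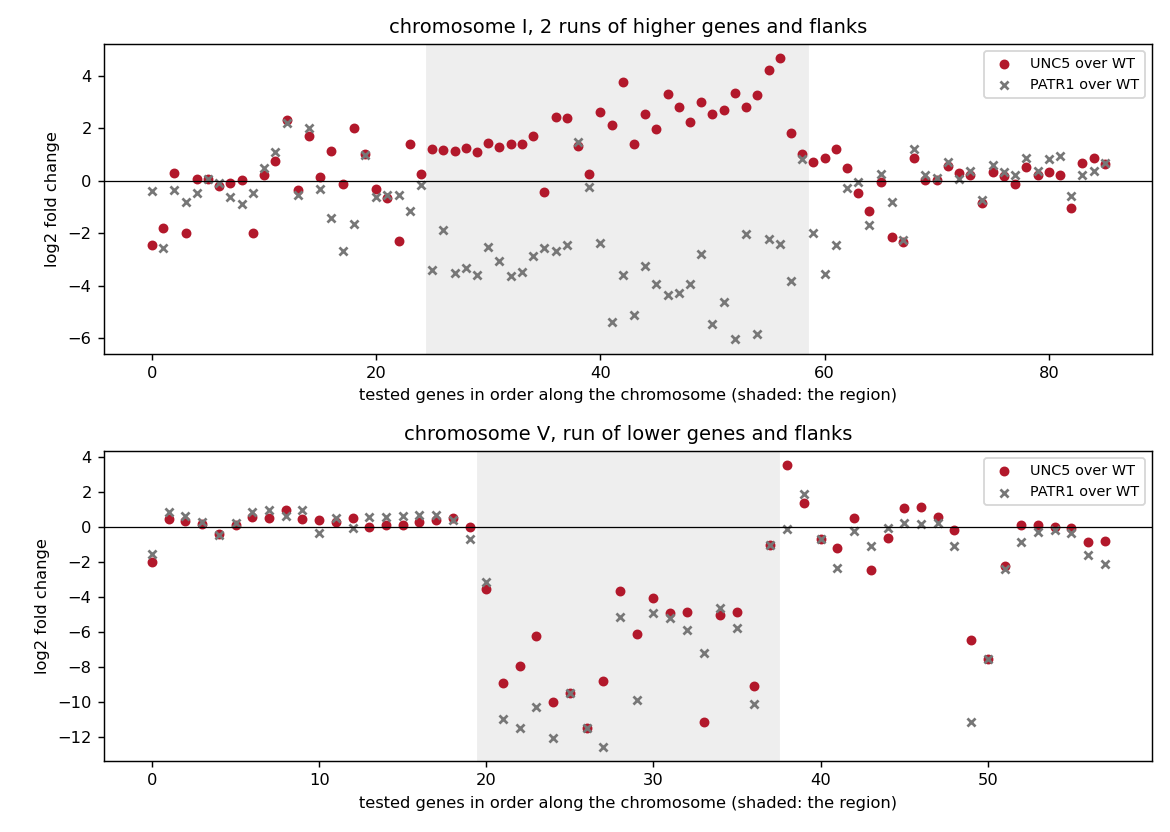
Log2 fold change over WT of tested genes in their order along chromosome I (top) and chromosome V (bottom), UNC5 as red dots and PATR1 as grey crosses, with the region described in the text shaded and a window of the same length on each side. In the chromosome I stretch 32 of 34 genes were called higher in UNC5 and 29 called lower in PATR1. In the chromosome V run all 18 were called lower in UNC5. The bounds of both regions were set by the UNC5 calls.

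On chromosome IV, which carries unc-5, 4 runs of lower genes lay between 5056912 and 5469134, on the side of unc-5 with lower coordinates. Further runs of lower genes on this chromosome lay on the other side of unc-5, between 9839057 and 10322750, and are not described singly. The nearest to unc-5, from 5452967 to 5469134, held 5 genes with a median of -2.31, among them Y4C6A.4 and Y52D5A.2, and the same genes had a median of -0.44 in PATR1. The farthest of these 4, from 5056912 to 5072263, held 7 genes (median -2.37), among them msp-57 and msp-53. From 5218796 to 5267605, 13 adjacent genes were called lower with a median of -1.93, among them the major sperm protein gene msp-19, at 14.5 CPM in UNC5 and 31.0 CPM in WT, and ttbk-2.1, a tau tubulin kinase homolog, at 1.013 CPM in UNC5 and 4.48 CPM in WT. In PATR1 their median was -0.59. In this run WBGene00018125, at 0.0987 CPM in UNC5 and 0.573 CPM in WT, moved to -3.45 without UNC5 replicate 3 (all libraries -2.44). From 5294957 to 5316906, 10 adjacent genes were called lower (median -1.78), among them msp-51, msp-113, msp-59 and msp-65. Sperm genes of this species are clustered on chromosomes II and IV, so neighbours are not independent.

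Of 159 symbol families with at least 10 tested genes, the highest shares of higher genes were in tbx, sdz and fbxb. T-box factor genes (tbx) were called higher in 8 of 11 cases (72.7%, median 1.14). Genes named sdz, for transcripts of the early embryo that depend on the factor SKN-1, were called higher in 14 of 20 (median 1.35), but among those with 5 CPM in at least 3 libraries the median was -0.46. F-box genes of the fbxb family were called higher in 37 of 53 (69.8%, median 1.69), at low levels, and those of the fbxc family in 9 of 29. fbxb-83 had 0.484, 0.614 and 0.438 CPM in the UNC5 libraries, against 0.0338, 0.0669 and 0.0635 CPM in the WT libraries, and fbxc-58 17.4, 17.9 and 19.3 CPM in the UNC5 libraries, against 6.52, 6.41 and 6.54 CPM in the WT libraries (log2 fold change 1.49 ± 0.0585, adjusted p = 4.8e-21). The groups stood apart in both genes. Skp1-related genes (skr), whose products bind F-box proteins in ubiquitin ligases, were called higher in 8 of 19 and lower in 2. skr-7 averaged 7.23 ± 0.676 CPM in UNC5 and 2.24 ± 0.117 CPM in WT, and skr-5, which fell, 3.68 ± 0.319 CPM in UNC5 and 11.5 ± 0.666 CPM in WT. Genes of the BTB domain family (btb) were called higher in 5 of 16, and the median of 0.46 became -0.21 with a filter at 5 CPM in 3 libraries. tbx-36 averaged 16.4 ± 0.344 CPM in UNC5 and 6.35 ± 0.444 CPM in WT, and tbx-34, the 1 T-box gene called lower, 2.34 ± 0.0883 CPM in UNC5 and 10.6 ± 0.0566 CPM in WT.

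Histone genes (his) were called higher in 16 of 32 cases and lower in 2 (median 1.00), and single copies are uncertain because they are nearly identical. his-59 averaged 6.64 ± 0.207 CPM in UNC5 and 1.94 ± 0.216 CPM in WT, and his-70, a histone H3 variant gene, 1.82 ± 0.256 CPM in UNC5 and 7.82 ± 0.181 CPM in WT, lower in UNC5. Genes named dod, for being downstream of the insulin-regulated factor DAF-16, were called higher in 5 of 10. dod-24 had 223, 211 and 199.96 CPM in the UNC5 libraries, against 48.0, 49.0 and 48.8 CPM in the WT libraries (log2 fold change 2.121 ± 0.0374, adjusted p = 2.7e-30). Serpentine receptor genes of class srw were called higher in 4 of 10, with srw-88 at 0.852 CPM in UNC5 and 0.0878 CPM in WT. Genes of the fipr family of small secreted peptides were called higher in 7 of 19, with fipr-10 at 28.6 CPM in UNC5 and 9.66 CPM in WT. SCP-like secreted protein genes (scl) split, with 5 called higher and 5 lower of 15. scl-11 averaged 25.005 ± 0.367 CPM in UNC5 and 1.27 ± 0.113 CPM in WT, and scl-12 32.2 ± 1.39 CPM in UNC5 and 5.23 ± 0.591 CPM in WT. In PATR1 scl-11 averaged 0.0151 CPM, and scl-12 had 0 counts. The dct family was called higher in 3 of 11, with a median of 0.03, or -0.07 under relative log expression scaling.

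The highest shares of lower genes were in the sperm families ssp (10 of 11), msp (26 of 29) and spe (24 of 28) and in nspb (9 of 10). The nspb genes are in none of the sperm lists. Other families with no sperm name followed. Neprilysin-like metalloprotease genes (nep) were called lower in 11 of 23 (median -0.91), and nep-6 had 1.27, 2.14 and 2.17 CPM in the UNC5 libraries, against 10.5, 10.7 and 10.9 CPM in the WT libraries (log2 fold change -2.51 ± 0.1003, adjusted p = 1.1e-20). Sodium-coupled transporter genes (snf) were called lower in 4 of 10, and snf-5 had 13.5, 13.3 and 13.9 CPM in the UNC5 libraries, against 69.0, 68.7 and 72.7 CPM in the WT libraries (log2 fold change -2.37 ± 0.0449, adjusted p = 1.0e-29). The irld genes, which encode proteins with insulin and EGF receptor L domains, were called lower in 8 of 21 and higher in 3, and irld-1 averaged 1.83 ± 0.358 CPM in UNC5 and 9.16 ± 0.0802 CPM in WT. Of the pals genes, which mark the response to intracellular pathogens, 17 of 32 were called lower (53.1%, median -1.19), and pals-14 averaged 4.75 ± 0.285 CPM in UNC5 and 29.0 ± 0.541 CPM in WT. The abu genes, which encode repeat proteins of the pharyngeal cuticle, were called lower in 5 of 12, and the mltn genes, related to the moulting gene mlt-10, in 5 of 12. abu-7 had 6.80, 6.32 and 5.91 CPM in the UNC5 libraries, against 40.1, 35.4 and 36.4 CPM in the WT libraries (log2 fold change -2.56 ± 0.0625, adjusted p = 1.1e-26), and mltn-7 averaged 0.605 ± 0.118 CPM in UNC5 and 14.5 ± 0.290 CPM in WT. In PATR1 mltn-7 stood at 0.482 CPM and nep-6 at 5.98 CPM.

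**Figure D4:**
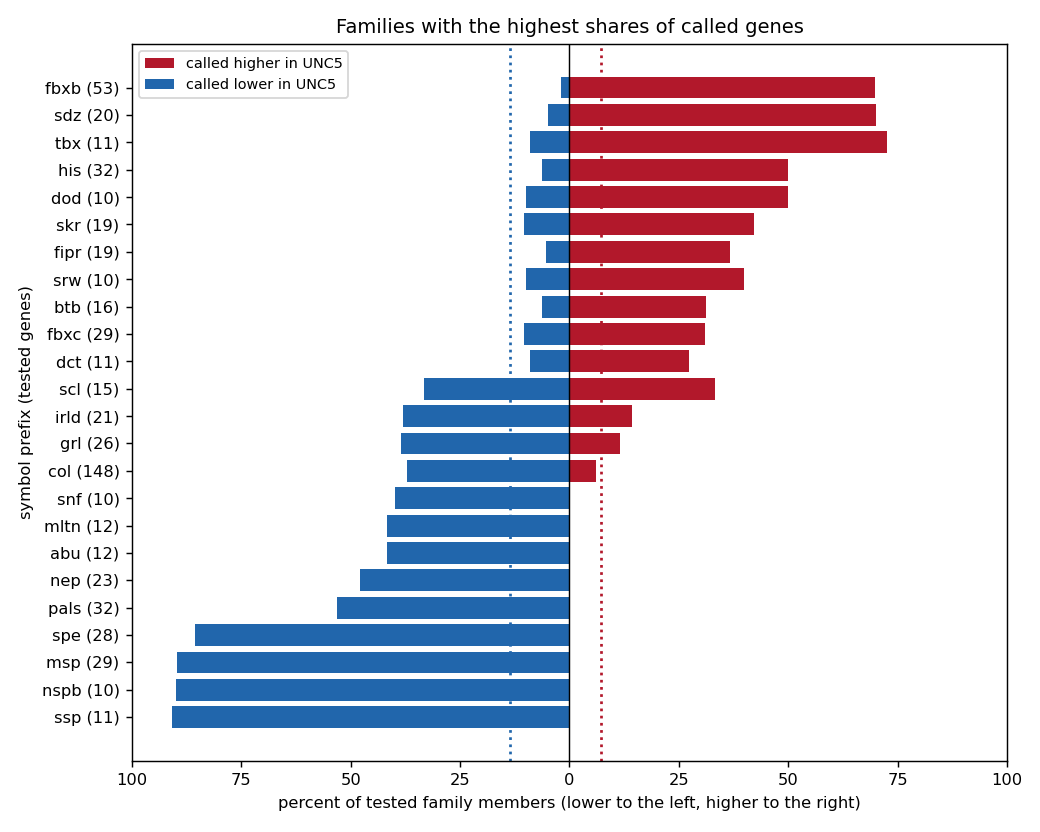
Percent of the tested members of 24 symbol families called higher (red, to the right) or lower (blue, to the left) in UNC5, with the tested number in brackets and dotted lines at the shares of all tested genes, 7.09% higher and 13.7% lower. tbx, sdz and fbxb lead to the right, and nspb and the sperm families ssp, msp and spe to the left.

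In the epidermis, collagen genes named col were called lower in 55 of 148 cases (37.2%) and higher in 9 (median -0.58), and their share of counts was 3.19% ± 0.0547 of counts in UNC5 and 4.81% ± 0.112 in WT. col-43 had 1.38, 0.909 and 1.03 CPM in the UNC5 libraries, against 1301, 1217 and 1263 CPM in the WT libraries (log2 fold change -10.16 ± 0.0690, adjusted p = 2.6e-41), and col-36 1.66, 1.03 and 1.07 CPM in the UNC5 libraries, against 1003, 954 and 967 CPM in the WT libraries. Every UNC5 library of both genes was far below every WT library. col-158 averaged 2.57 ± 0.373 CPM in UNC5 and 1039.9 ± 31.5 CPM in WT. The falls of col-129, with 212 CPM in UNC5 and 1620.0 CPM in WT, col-139, with 135 CPM in UNC5 and 1015 CPM in WT, col-81, with 111 CPM in UNC5 and 816 CPM in WT, and col-124, with 726 CPM in UNC5 and 2333 CPM in WT, were smaller in fold but large in amount. col-17 rose, with 948, 1022 and 1043 CPM in the UNC5 libraries, against 315, 312 and 281 CPM in the WT libraries (log2 fold change 1.73 ± 0.0405, adjusted p = 1.8e-25). Of the col genes at 5 CPM or more in WT, the 4 with the most negative log2 fold changes fell further when UNC5 replicate 1 was left out. Without it col-102 went to -12.74 (all libraries -11.83), col-84 to -11.48 (-10.69), col-123 to -11.13 (-10.49) and col-164 to -11.18 (-10.32). In PATR1 the same 4 genes were also near 0, at 0.0398 CPM for col-102, 0.0612 for col-84, 0.0350 for col-123 and 0.0149 for col-164. Near-identical collagen copies make single members uncertain.

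Collagens listed for furrows, struts and body shape went mainly up as a list, while the bli genes among them went down. Their log2 fold changes were -1.93 for bli-6, -0.84 for bli-1 and -0.41 for bli-2. Of the 21 tested genes of the list, 16 rose and 5 fell, 6 and 3 of them past the call (median 0.79). rol-6, a furrow collagen gene whose dominant alleles make worms roll, had 251, 254 and 261 CPM in the UNC5 libraries, against 104, 105 and 102 CPM in the WT libraries (log2 fold change 1.303 ± 0.0347, adjusted p = 1.2e-25). dpy-17 averaged 7.39 ± 1.18 CPM in UNC5 and 1.92 ± 0.0167 CPM in WT, dpy-14 5.72 ± 0.142 CPM in UNC5 and 1.53 ± 0.210 CPM in WT and dpy-4, which rose without a call, 1552 ± 40.1 CPM in UNC5 and 832 ± 21.7 CPM in WT. The adult collagen gene col-19 had 325, 333 and 336 CPM in the UNC5 libraries, against 902, 887 and 894 CPM in the WT libraries (log2 fold change -1.43 ± 0.0325, adjusted p = 1.5e-27), and bli-6, whose mutants have blistered cuticle, 90.7 ± 2.32 CPM in UNC5 and 346 ± 8.19 CPM in WT. All libraries of col-19 were thus lower in UNC5, whereas in PATR1 it averaged 777 CPM. Of 28 moulting and collagen-processing genes, 17 rose, 8 fell and 1 was called (median 0.22): nhr-25, a nuclear receptor gene of the moulting cycle, averaged 26.7 ± 1.35 CPM in UNC5 and 13.3 ± 0.655 CPM in WT. Of 22 genes of epidermal junctions, attachment and fate, 15 rose and 3 fell (median 0.21). Among them mup-4, which holds muscle to the epidermis, averaged 545 CPM in UNC5 and 339 CPM in WT, and the seam cell factor gene ceh-16 2.65 ± 0.351 CPM in UNC5 and 1.59 ± 0.195 CPM in WT. The 1 called gene, nhr-73, was lower at 0.120 CPM in UNC5 and 0.477 CPM in WT, and ifa-3 was higher at 1.33 CPM in UNC5 and 0.748 CPM in WT.

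A group of cuticle genes known from the dauer larva, the arrested stage worms enter under crowding or hunger, stood high in WT and far lower in UNC5. The dauer cuticlin gene cut-1 had 0.611, 0.246 and 0.219 CPM in the UNC5 libraries, against 649.9, 672 and 727 CPM in the WT libraries (log2 fold change -10.92 ± 0.116, adjusted p = 2.1e-18, and -11.51 without UNC5 replicate 1). The dauer collagen genes col-2 and col-40 followed. col-2 had 9.01, 9.66 and 9.45 CPM in the UNC5 libraries, against 786, 698 and 745 CPM in the WT libraries (log2 fold change -6.31 ± 0.0499, adjusted p = 6.9e-40), and col-40 5.91, 4.50 and 5.43 CPM in the UNC5 libraries, against 512, 518 and 519 CPM in the WT libraries (log2 fold change -6.61 ± 0.0510, adjusted p = 2.2e-40). In each of these genes every UNC5 library was far below every WT library. The cuticlin genes cut-6 and cut-5 and dex-1, a zona pellucida domain gene needed for the lateral ridges of the dauer cuticle, averaged 5.24 ± 0.119 CPM in UNC5 and 62.2 ± 1.08 CPM in WT for cut-6, 0.766 ± 0.121 CPM in UNC5 and 13.2 ± 0.395 CPM in WT for cut-5 and 23.6 ± 0.624 CPM in UNC5 and 101 ± 2.85 CPM in WT for dex-1. scl-1 had 0 counts in UNC5 and 4.30 CPM in WT, at least 179.9-fold lower over a floor of 3 counts. The 23 genes of the dauer and stress list had 10 called lower and 2 higher (median -0.39), and held 0.196, 0.190 and 0.193% of counts in the UNC5 libraries, against 0.462, 0.457 and 0.468% in the WT libraries. The difference of the means was -0.269 percentage points, and -0.160 with unstranded counts.

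The other members of the list went both ways. Called lower were mtl-1, a metallothionein gene, with a log2 fold change of -2.86, aqp-1, a glycerol channel gene, with -2.28, hsp-70, a heat shock protein gene, with -1.85, and icl-1, of the glyoxylate cycle, with -1.62. daf-9, which encodes the enzyme that makes the steroid ligand of DAF-12, was called higher with 1.31. The superoxide dismutase gene sod-3 averaged 15.3 ± 0.465 CPM in UNC5 and 23.6 ± 0.0865 CPM in WT, and the catalase gene ctl-1 28.03 ± 1.83 CPM in UNC5 and 36.6 ± 1.41 CPM in WT, both lower and not called. The small heat shock protein gene hsp-12.6 was called higher at 2.81 ± 0.491 CPM in UNC5 and 1.41 ± 0.0736 CPM in WT, and lea-1, a desiccation-tolerance protein gene, averaged 780.2 ± 19.9 CPM in UNC5 and 668 ± 24.8 CPM in WT. The noncoding RNA gene tts-1, abundant in dauers, averaged 162 ± 9.50 CPM in UNC5 and 132 ± 5.24 CPM in WT. In PATR1, against the same WT libraries, cut-1 stood at 0.140, col-2 at 0.244 and col-40 at 0.874 CPM. The cuticlin genes cut-5 and cut-6 were low there too, at 0.739 and 2.64 CPM. For these genes the WT libraries alone of the 9 were high, and whether some WT worms were at another stage was not tested.

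Hedgehog-related genes, which in nematodes act in the epidermis and cuticle, also held a few members near 0 in UNC5. Of 80 tested hedgehog-related and patched-related genes, 17 were called lower and 5 higher (median 0.18), and of the 26 ground-like genes (grl) 10 were called lower and 3 higher. The median of the grl genes was -0.06, and 0.03 without WT replicate 1 and 0.09 with unstranded counts. grl-20 had 0.891, 0.762 and 0.722 CPM in the UNC5 libraries, against 188, 183 and 191 CPM in the WT libraries (log2 fold change -7.89 ± 0.0630, adjusted p = 3.7e-40), and grl-17 0.204, 0.320 and 0.284 CPM in the UNC5 libraries, against 142, 141 and 151 CPM in the WT libraries (log2 fold change -9.05 ± 0.0805, adjusted p = 7.2e-39). grl-9 averaged 0.714 ± 0.108 CPM in UNC5 and 176 ± 4.89 CPM in WT, grl-19 0.0322 ± 0.0148 CPM in UNC5 and 36.5 ± 1.43 CPM in WT and grl-25 5.66 ± 0.524 CPM in UNC5 and 482 ± 12.98 CPM in WT. In grl-23 the WT libraries differed among themselves, with 1.43, 1.499 and 1.18 CPM in the UNC5 libraries, against 292, 249 and 198 CPM in the WT libraries. Of 40 cuticlin and zona pellucida domain genes, 6 were called lower and 1 higher. Their median was 0.08, or -0.02 under relative log expression scaling. The hedgehog-related and patched-related genes held 0.437% ± 0.00668 of counts in UNC5 and 0.520% ± 0.00393 in WT, a difference of -0.0824 percentage points that was -0.0491 with unstranded counts.

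Epidermal antimicrobial peptide genes, which respond to fungal infection and wounding, were mostly higher. Of 19 tested, 16 rose and 3 fell, with 9 called higher and 2 lower (median 0.99). The caenacin gene cnc-2 had 21.5, 19.5 and 21.4 CPM in the UNC5 libraries, against 4.93, 4.77 and 4.98 CPM in the WT libraries (log2 fold change 2.09 ± 0.0624, adjusted p = 2.9e-24), and cnc-3 and cnc-4 averaged 22.6 ± 1.79 CPM in UNC5 and 7.34 ± 0.330 CPM in WT for cnc-3 and 30.5 ± 2.40 CPM in UNC5 and 12.4 ± 1.09 CPM in WT for cnc-4. cnc-9 went down, with 0.178, 0.221 and 0.263 CPM in the UNC5 libraries, against 9.42, 9.64 and 10.9 CPM in the WT libraries (log2 fold change -5.47 ± 0.146, adjusted p = 1.3e-25). Of 9 osmotic response genes 4 rose, 4 fell and 1 did not pass (median 0.00, and -0.10 with relative log expression factors), and the 1 called gene, the myo-inositol transporter gene hmit-1.2, averaged 1.39 ± 0.224 CPM in UNC5 and 6.92 ± 0.663 CPM in WT.

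**Figure D5:**
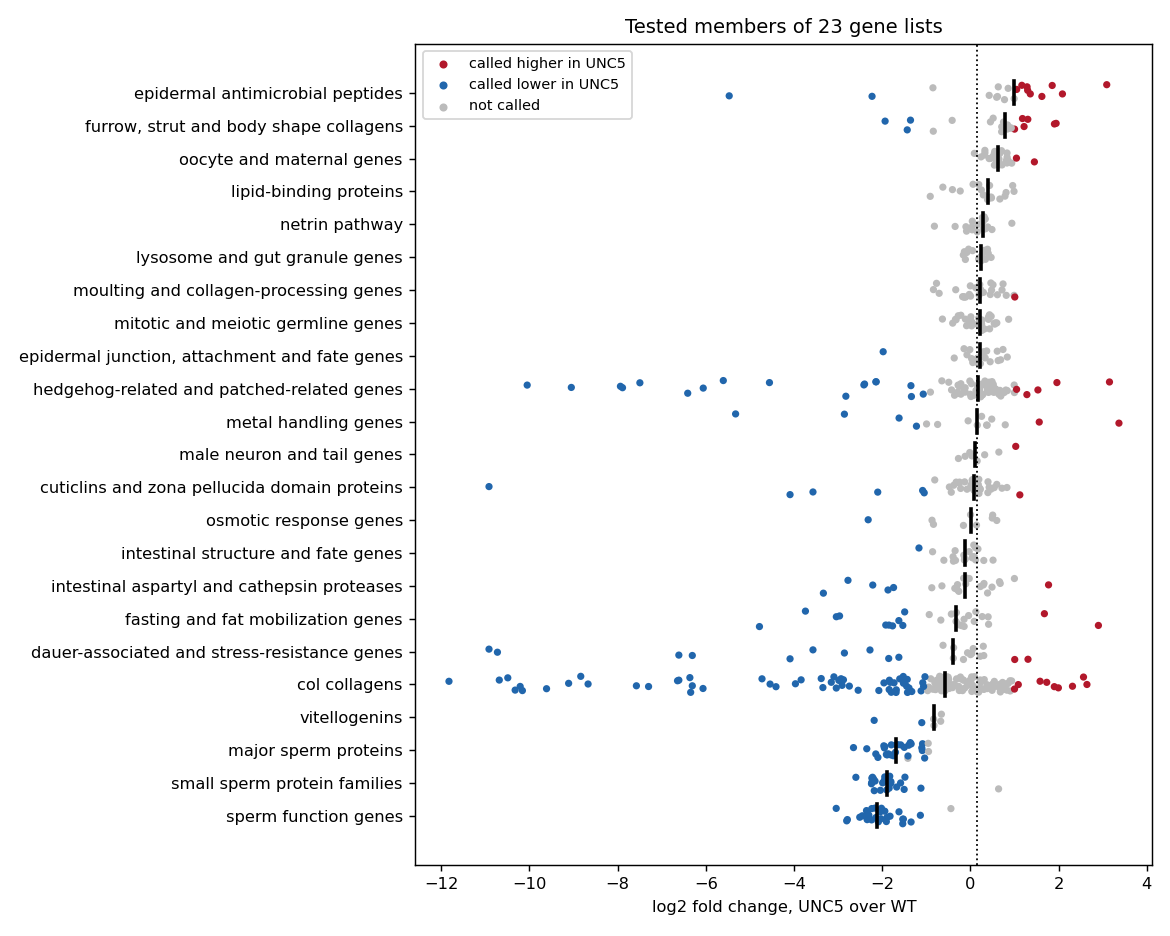
Log2 fold change, UNC5 over WT, of each tested member of 23 gene lists ordered by median, with black bars for list medians and a dotted line at 0.16, the median of all genes tested. Red and blue points were called higher and lower. The 3 sperm lists have medians of -1.68 to -2.11, while col collagens and hedgehog-related genes spread far to the left.

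In the intestine, 1 structure and fate gene was called, and genes of fasting and fat mobilization were called lower more often than the 13.7% of all genes. Of 21 structure and fate genes 11 fell and 6 rose (median -0.12), and pgp-1, an ABC transporter gene of the gut surface, was the 1 called, at 13.4 ± 0.0959 CPM in UNC5 and 30.0 ± 0.405 CPM in WT. Of 16 lysosome and gut granule genes 9 rose, 3 fell and 0 were called, by edgeR or by DESeq2, with 12 at an unadjusted p below 0.05 (median 0.24). The mucolipin gene cup-5 averaged 70.5 ± 0.734 CPM in UNC5 and 50.9 ± 1.28 CPM in WT, the cystinosin gene ctns-1 103 ± 5.66 CPM in UNC5 and 79.0 ± 2.48 CPM in WT, and the adaptor and transporter genes apb-3 and slc-36.1 rose by 0.41 and 0.39 on the log2 scale. Of 24 aspartyl and cathepsin proteases 5 were called lower and 1 higher (median -0.13), a share close to the 20.8% of all genes tested. asp-12 had 28.1, 28.5 and 27.0 CPM in the UNC5 libraries, against 8.27, 7.93 and 8.23 CPM in the WT libraries (log2 fold change 1.77 ± 0.0514, adjusted p = 1.2e-24), asp-8 averaged 15.1 ± 1.35 CPM in UNC5 and 50.5 ± 1.32 CPM in WT, and asp-17 1.101 ± 0.175 CPM in UNC5 and 11.1 ± 0.382 CPM in WT.

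Metal genes went both ways, with 4 called lower and 2 higher of 15 (median 0.16, and -0.01 without a low-count filter). The zinc transporter gene zipt-2.3, which releases zinc from gut granules, had 73.4, 69.8 and 73.3 CPM in the UNC5 libraries, against 7.07, 7.13 and 6.74 CPM in the WT libraries (log2 fold change 3.37 ± 0.0461, adjusted p = 1.1e-33). The ferritin gene ftn-1 averaged 29.0 ± 2.32 CPM in UNC5 and 9.83 ± 0.673 CPM in WT. For both genes all UNC5 libraries were above all WT libraries. The metallothionein gene mtl-2 had 0.178, 0.0983 and 0.219 CPM in the UNC5 libraries, against 7.26, 6.41 and 6.73 CPM in the WT libraries (log2 fold change -5.32 ± 0.167, adjusted p = 1.1e-23), and the metal importer gene smf-3 averaged 2.37 ± 0.192 CPM in UNC5 and 5.52 ± 0.696 CPM in WT. Of 27 genes of fasting and fat mobilization 10 were called lower and 2 higher (median -0.33). The desaturase gene fat-5 had 5.83, 6.12 and 6.15 CPM in the UNC5 libraries, against 79.1, 80.8 and 82.5 CPM in the WT libraries (log2 fold change -3.74 ± 0.0498, adjusted p = 5.2e-34). The acyl-CoA synthetase gene acs-2 had 28.7, 28.6 and 28.4 CPM in the UNC5 libraries, against 222, 239 and 243 CPM in the WT libraries (log2 fold change -3.04 ± 0.0387, adjusted p = 1.5e-34). For both, every UNC5 library was below every WT library. The lysosomal lipase gene lipl-3 averaged 0.751 ± 0.201 CPM in UNC5 and 5.87 ± 0.580 CPM in WT, and the glyoxylate cycle gene icl-1 241 ± 0.938 CPM in UNC5 and 741 ± 4.41 CPM in WT. ech-9, an enoyl-CoA hydratase gene, rose, with 31.4, 33.3 and 31.0 CPM in the UNC5 libraries, against 4.47, 4.45 and 3.86 CPM in the WT libraries (log2 fold change 2.90 ± 0.0599, adjusted p = 1.0e-28).

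Of 17 genes of lipid-binding proteins 11 rose, 4 fell and 0 were called by edgeR, with 15 at an unadjusted p below 0.05, while DESeq2 called 1 lower (median 0.39). lbp-1 averaged 101 ± 0.679 CPM in UNC5 and 51.8 ± 0.687 CPM in WT, lbp-2 357 ± 3.40 CPM in UNC5 and 204 ± 8.21 CPM in WT and far-5 24.3 ± 0.588 CPM in UNC5 and 12.2 ± 0.944 CPM in WT, all higher, and lbp-7 averaged 11.6 ± 0.907 CPM in UNC5 and 21.9 ± 1.94 CPM in WT, lower. Of the yolk genes vit-1 (WBGene00006925, chromosome X, 7727889 to 7733168, plus strand) had 654, 668 and 662 CPM in the UNC5 libraries, against 2988, 2974 and 3048 CPM in the WT libraries (log2 fold change -2.18 ± 0.0371, adjusted p = 5.2e-31), and vit-3 averaged 1032 ± 4.05 CPM in UNC5 and 2216 ± 68.2 CPM in WT. The abundant vit-2 and vit-6 fell by less than the call, with 12487 ± 320.3 CPM in UNC5 and 19692 ± 314 CPM in WT for vit-2, and 14496 ± 201 CPM in UNC5 and 23108 ± 339 CPM in WT for vit-6. Their libraries did not overlap between the groups. In PATR1 vit-2 averaged 29600.0 CPM and vit-6 30757 CPM. The median log2 fold change of all 6 yolk genes in PATR1 against WT was -0.02.

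The defining genes of the main tissues were present in both groups. Of 10 neuron genes 6 rose and 4 did not pass (median 0.14), summing to 723 to 739 CPM in UNC5 and 635 to 672 CPM in WT. Of 7 body wall muscle genes 5 rose and 2 fell (median 0.14), with myo-3 at 629 ± 10.5 CPM in UNC5 and 497 ± 19.9 CPM in WT and unc-54, the main muscle myosin, at 3669.7 ± 79.5 CPM in UNC5 and 4322 ± 145 CPM in WT. Without a low-count filter the neuron median was -0.02 and the muscle median -0.03. Of 6 epidermis genes 4 rose and 1 fell (median 0.53). These genes, like the intestine genes that follow, also stand in lists described above, so they are not a separate result. The called ones were rol-6 and nhr-25, while elt-3 and lin-26 had log2 fold changes of -0.01 and 0.30. Of 6 intestine genes 3 fell and 1 rose (median -0.11), with the gut factor gene elt-2 at 22.6 ± 1.08 CPM in UNC5 and 28.6 ± 1.197 CPM in WT and the esterase gene ges-1 at 46.3 ± 2.41 CPM in UNC5 and 60.4 ± 1.33 CPM in WT. Pharynx genes fell in 5 of 6 cases (median -0.35) and summed to 354 to 361 CPM in UNC5 and 615 to 645 CPM in WT. The pharyngeal myosin genes fell without a call by edgeR, while DESeq2 called 2 genes of this list lower. myo-2 averaged 151 ± 2.41 CPM in UNC5 and 290.0 ± 8.38 CPM in WT, myo-1 128 ± 1.70 CPM in UNC5 and 245 ± 6.79 CPM in WT, and myo-5 38.5 ± 0.754 CPM in UNC5 and 50.7 ± 0.880 CPM in WT.

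Among the most abundant messages the gain in amount was greatest in genes encoded by mitochondrial DNA. The 12 protein genes of that chromosome held 3.29, 3.46 and 3.37% of counts in the UNC5 libraries, against 2.28, 1.99 and 2.11% in the WT libraries. WBGene00010965 averaged 4828 ± 151 CPM in UNC5 and 1903 ± 156 CPM in WT, and WBGene00010960 4167 ± 366 CPM in UNC5 and 2021 ± 169 CPM in WT. The other large gains included the lysozyme gene lys-1 (1906 ± 109 CPM in UNC5 and 1223 ± 43.5 CPM in WT), the eggshell proteoglycan gene cpg-1 (1682 ± 27.2 CPM in UNC5 and 945 ± 28.4 CPM in WT) and eef-1A.2, a translation elongation factor gene (2446 ± 61.3 CPM in UNC5 and 1736 ± 96.6 CPM in WT). None of these 3 was called. The 78 cytosolic ribosomal protein genes held 7.52, 7.73 and 8.22% of counts in the UNC5 libraries, against 7.59, 7.60 and 7.64% in the WT libraries (exact permutation p = 0.4), and the groups overlapped. Genes of C-type lectins, which hold a sugar-binding domain, were called lower in 56 of 166 cases (33.7%) and higher in 21, and 93 fell and 52 rose (median -0.43). Their summed share of counts was nonetheless slightly higher in UNC5, with 0.669% ± 0.000659 of counts in UNC5 and 0.634% ± 0.00825 in WT. Pseudogenes held 0.533% ± 0.0129 of counts in UNC5 and 0.614% ± 0.00881 in WT.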

How the data were processed

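Poly(A) RNA of whole young adult worms was sequenced, and the authors deposited raw read counts per gene for each library, with no normalization or filter. Per the submitters' processing notes, the tools were FastQC 0.11.9, cutadapt 3.5 and STAR 2.7.11b with the WBcel235 build, while the design text names the WS288 release. A read that maps to more than 1 place adds to no gene in these files. The reverse-strand counts of 46926 genes were used, since the forward-strand column held 2.04% to 2.33% of the strand-assigned counts in UNC5 and WT. Symbols and positions came from the Ensembl annotation of WBcel235, which holds 46918 of the identifiers.

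Genes were filtered with filterByExpr, scaled with TMM factors (0.954 to 1.04) and fitted over all 9 libraries with the robust quasi-likelihood model of edgeR 4.0.16 in R 4.3.3, with Benjamini-Hochberg adjustment. The common biological coefficient of variation was 3.14%. CPM use the scaled library sizes, x-fold values are ratios of pooled counts over them, and 95% intervals and floors cover counting error only. Shares of counts and summed levels cover all genes of a group, also those with too few counts to be tested. The shares were tested by exact two-sided permutation in scipy 1.17.1. On simulated counts of 17512 genes for UNC5 against WT, 94 of 100 genes changed by a factor of 1.5 and 100 of 100 changed by a factor of 3 were recovered, and 13 of 17312 unchanged genes passed. The changed genes were drawn above a minimum level in WT, with as many rises as falls, and the spread was that of the fit. The rates therefore do not carry over to genes at lower levels or to a change as broad as the one seen here.

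The comparison, the 28 gene lists and the 159 symbol families were chosen with earlier results of these data known. Of the list symbols 8 matched no gene. Lists and families were not tested as sets. The genes named were unc-5, the 12 largest called rises and falls among clone-named genes with at least 5 CPM and no overlap of the groups, up to 4 members per list and 2 per family by size of change, the 15 largest rises and falls in mean CPM, and genes with at most 3 counts in a group against 5 CPM. This gave 179 genes, of which some are printed. Genes of the neighbour runs and fog-1, fog-3, spe-9, spe-11, spe-44, rme-2, mex-3, oma-1, scl-1, sod-3, ctl-1, hsp-12.6, lea-1, tts-1, mtl-1, aqp-1, hsp-70, daf-9, icl-1, grl-23, grl-25, pkd-2, unc-6, unc-40, elt-2, ges-1, unc-54, vit-2 and vit-6 were also picked after their values were seen.

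Same-numbered UNC5 and WT libraries did not deviate together (correlations of -0.047, 0.007 and 0.003), so the numbers were not taken as pairs. The alternatives were the Wald test of DESeq2 1.42.0, a fit of the 6 libraries by themselves, unstranded counts, the replicate block, leaving out each library, scaling by relative log expression or by library size, no filter on low counts, and a filter at 5 CPM in 3 libraries.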

Additional observations from a re-analysis of the deposited data

Results flagged for a closer look

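Some reads lie outside the counts used above, and their share was higher in the UNC5 libraries. Reads in no annotated gene were 1.32%, 1.11% and 1.22% of reads in the UNC5 libraries (mean 1.22%), against 0.639%, 0.582% and 0.647% in the WT libraries. Reads without a place in the genome averaged 0.783% in UNC5 and 0.624% in WT. Counts on the forward strand averaged 2.25% of strand-assigned counts in UNC5 and 2.07% in WT. For each of these 3 measures all UNC5 libraries were above all WT libraries, and the exact two-sided permutation p was 0.1, the smallest value 3 against 3 libraries allow. Their part in the gene results was not tested.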

How the results depend on the processing

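A stricter filter on low levels lowered the number of called genes. At 5 CPM or more in 3 libraries, 436 genes were called higher and 1179 lower in UNC5, against 1241 and 2404 in the fit described above. Leaving out each library in turn gave 1291 to 1324 higher, 2422 to 2483 lower, and a log2 fold change of unc-5 of -0.864 to -0.795. The fit with the replicate block gave 1239 higher and 2407 lower and -0.816 for unc-5, and since same-numbered libraries did not deviate together this is not a paired analysis. Relative log expression factors gave 1049 and 2529, DESeq2 1028 and 2521, and the 6 libraries alone 949 and 2590. The median of all genes was 0.16 with TMM factors, 0.06 with relative log expression factors, 0.11 with library sizes alone, 0.01 with the 6 libraries alone and -0.01 without a low-count filter. A list median within this range has no firm direction.

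For vha-6, an intestinal proton pump subunit gene not described above, the rise turned to -0.051 without a low-count filter and to -0.035 with the 6 libraries alone. Of the other values for single named genes, 3239 of the alternatives kept direction and side of the threshold and 78 lost the call. Of the counts of called genes in lists and families, 69 for lists and 36 for families moved by more than 1.5 times, 12 and 26 of them with the filter at 5 CPM, which leaves fewer genes. Of the 11 shares of counts 5 moved by more than the spread between libraries, all with unstranded counts and none in direction: the UNC5 minus WT difference in percentage points became -1.37 for col collagens (-1.62 on the reverse strand), -0.0491 for hedgehog-related genes (-0.0824), 0.0255 for C-type lectins (0.0350), -0.0540 for pseudogenes (-0.0809) and -0.160 for dauer and stress genes (-0.269). Depth limits the genes at 0 or a few counts, whose folds are bounds or intervals.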
